A study of Mus musculus with 16 samples.

Results

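This is a description of 10 genes of the mouse ileum whose levels were lower in both insulin-treated groups and which share no pathway. They are Rcor2, Meis3, Csnk1e, Efna3, Mpzl1, Ankrd13b, Clic6, Syngr1, Hoga1 and Acss3. These 10 genes were chosen on their levels in the 2 insulin-treated groups against Control-STAM-nonINS, out of 15267 genes that passed a filter on low counts among 41740 listed. All 10 passed that filter. Because those 2 comparisons chose the genes, the falls themselves are given below as a description, and no test of them is read as support.

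RNA of the whole ileal wall was sequenced from 16 STAM mice aged 20 weeks, 1 library per mouse. STAM mice receive streptozotocin at 2 days of age, which destroys insulin-producing cells, and a high-fat diet from 4 weeks, and develop diabetes with fatty liver disease. Control-STAM-nonINS (n = 4) carried the floxed insulin receptor without Cre (genotype Vilin-Cre(-); InsR-flox) and got no insulin. Control-STAM-INS (n = 6) had the same genotype and received insulin degludec 2 times a day from 6 weeks of age, at up to 12 U/kg. The mice labelled ieIRKO-STAM-INS (n = 6, here the ieIRKO-labelled mice or libraries) also received insulin and carried Cre under the villin promoter (Vilin-Cre(+); InsR-flox), which is active in the intestinal epithelium and not in the muscle, nerve, vessel and immune cells of the wall. Comparisons of both insulin-treated groups use the same 4 Control-STAM-nonINS libraries, and that of the ieIRKO-labelled libraries differs from them in genotype as well as in insulin.

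The genes act in separate places in the cell. Rcor2 is a corepressor that works with the histone demethylase Kdm1a, and Meis3 is a homeobox transcription factor. Csnk1e is casein kinase 1 epsilon, which phosphorylates proteins of the circadian clock and of Wnt signalling. Efna3 is an ephrin, a ligand anchored in the cell membrane that binds Eph receptors on neighbouring cells, and Eph receptors and ephrins help to place epithelial cells along the crypt and villus. Mpzl1 is an immunoglobulin-domain membrane protein that binds the phosphatase SHP2. Ankrd13b binds ubiquitin on internalised receptors, Clic6 belongs to the chloride intracellular channel family, and Syngr1 is a membrane protein of secretory and synaptic vesicles. Hoga1 is the mitochondrial aldolase that ends hydroxyproline breakdown, and Acss3 is a mitochondrial acyl-CoA synthetase that acts on short-chain acids such as propionate.

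The libraries held between 13288018 and 22215382 counted reads. Insr, the targeted gene, had a mean of 105 CPM (read counts adjusted for library size with edgeR's TMM factors) in Control-STAM-nonINS, 62.7 CPM in Control-STAM-INS and 67.2 CPM in the ieIRKO-labelled libraries. Like the 10 genes, it fell in both insulin-treated groups, by log2 fold changes of -0.75 (adjusted p = 0.00275, edgeR) and -0.65 (adjusted p = 0.00582, edgeR). Between those groups its difference did not pass, with a log2 fold change of 0.10 (SE 0.13, adjusted p = 0.805, edgeR). The counts cover the whole gene in the whole wall, so reads from exons outside the floxed part and from cells outside the epithelium are included, and these counts do not measure the receptor in the epithelium alone. Other genes did differ between the insulin-treated groups, among them 3 of 5 Paneth cell markers, where 0.223% of all genes differed. Lyz1 (-2.31), Ang4 (-1.64) and Itln1 (-1.36) were lower in the ieIRKO-labelled libraries, while Mmp7 and Pla2g2a did not pass. Enterocyte markers were present: the summed level of 8 of them lay between 9063 and 37274 CPM in every library. In RNA of a whole wall, fewer cells of a type and less RNA per cell cannot be told apart.

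Promoters of 8 of the 10 genes (all but Clic6 and Acss3), at 13 start sites, were matched by symbol in RefSeq annotation of GRCm38.p6, each covering 250 bases before and 50 bases after a start site. Rcor2 is shown as the gene with the largest fall in Control-STAM-INS, Efna3 because its neighbours are described below, Meis3 as the gene without a GC box, and Hoga1 as the gene with the largest fall in the ieIRKO-labelled libraries. Capitals mark matches, on either strand, to the motifs that were found, the GC box GGGCGG, the E-box CACGTG and the CCAAT box CCAAT, and neighbouring GC boxes could share bases. The windows are Rcor2 at chr19:7267144-7267443 on the plus strand, the outer start of Efna3 at chr3:89322890-89323189 on the minus strand, Meis3 at chr7:16175145-16175444 on the plus strand and Hoga1 at chr19:42045620-42045919 on the plus strand, each written 5′ to 3′ along the gene.
Rcor2: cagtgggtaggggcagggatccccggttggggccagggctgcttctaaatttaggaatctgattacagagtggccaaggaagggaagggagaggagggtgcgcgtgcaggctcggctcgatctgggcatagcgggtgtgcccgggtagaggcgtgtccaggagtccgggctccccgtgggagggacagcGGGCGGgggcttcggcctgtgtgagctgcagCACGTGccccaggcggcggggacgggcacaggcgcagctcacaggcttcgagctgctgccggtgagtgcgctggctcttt
Efna3: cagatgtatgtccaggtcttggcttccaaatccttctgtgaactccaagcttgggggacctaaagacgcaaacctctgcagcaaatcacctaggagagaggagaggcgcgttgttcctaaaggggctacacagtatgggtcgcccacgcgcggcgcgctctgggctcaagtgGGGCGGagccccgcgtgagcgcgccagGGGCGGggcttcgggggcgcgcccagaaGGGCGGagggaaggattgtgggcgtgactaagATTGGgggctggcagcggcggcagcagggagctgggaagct
Meis3: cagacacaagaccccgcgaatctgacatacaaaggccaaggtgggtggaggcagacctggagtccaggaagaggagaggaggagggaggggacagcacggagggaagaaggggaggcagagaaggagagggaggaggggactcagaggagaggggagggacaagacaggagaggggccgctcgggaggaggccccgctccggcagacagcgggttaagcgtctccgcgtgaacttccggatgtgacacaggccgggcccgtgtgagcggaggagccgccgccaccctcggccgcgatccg
Hoga1: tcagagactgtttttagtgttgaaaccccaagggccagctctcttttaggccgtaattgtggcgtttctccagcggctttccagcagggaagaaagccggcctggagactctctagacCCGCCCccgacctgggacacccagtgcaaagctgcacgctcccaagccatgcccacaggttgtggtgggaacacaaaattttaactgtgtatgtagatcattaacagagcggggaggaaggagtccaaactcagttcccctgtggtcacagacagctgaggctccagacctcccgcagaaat

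The GC box was found at 11 of the 13 start sites and in 7 of the 8 genes, every matched gene but Meis3, while 35.7% of 32851 RefSeq promoters of the same length held it. The GC content of the 13 windows was 54.3% to 83.7%, all above the median of 52.7% over all promoters, and 4 of the windows belong to overlapping starts of Csnk1e. The E-box CACGTG was found only in Rcor2 among the 8 genes (7.15% of all promoters). The CCAAT box was found in Efna3 and Mpzl1 (37.4% of all promoters). The FOXO core GTAAACA (3.65% of all promoters), the cAMP response element TGACGTCA (1.79%) and the TATA box TATAAA (13.6%) matched none of the 13 windows, which says only that these letters are not there. The same held for the HNF4 motif CAAAGTCCA (0.475%), the ERR motif TCAAGGTCA (0.423%) and the sterol element TCACNCCAC (1.24%).

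Both nuclear regulators were lower in every insulin-treated library than in any Control-STAM-nonINS library. Rcor2 (chr19:7267325-7275225, plus strand) had 9.38, 5.33, 9.45 and 8.35 CPM in Control-STAM-nonINS replicates 1 to 4. Its lowest, median and highest levels were 0.733, 1.07 and 1.44 CPM in Control-STAM-INS and 1.24, 1.49 and 1.89 CPM in the ieIRKO-labelled libraries. The group means of Rcor2 in insulin-treated mice were thus 13.4% and 18.5% of that without insulin, with log2 fold changes of -2.89 (SE 0.21) and -2.43 (SE 0.21). Rcor2 rested on few reads there, with 13 to 28 counts per Control-STAM-INS library against 68 to 191 without insulin. Meis3 (chr7:16175090-16186504, plus strand) had 13.9, 13.3, 18.7 and 14.6 CPM without insulin. With insulin, its lowest, median and highest levels were 6.12, 6.61 and 7.19 CPM in Control-STAM-INS and 6.13, 7.42 and 8.47 CPM in the ieIRKO-labelled libraries. Meis3 therefore stood at 43.6% and 48.2% of the level without insulin, with log2 fold changes of -1.20 (SE 0.13) and -1.05 (SE 0.12).

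Csnk1e (chr15:79417856-79455566, minus strand), the kinase, had a small spread between insulin-treated mice, with coefficients of variation of 7.20% in Control-STAM-INS and 5.19% in the ieIRKO-labelled libraries. It measured 54.9, 41.8, 43.5 and 42.4 CPM without insulin, with replicate 1 standing above the other 3. Control-STAM-INS ran from 21.7 to 26.5 CPM with a median of 23.0, and the ieIRKO-labelled libraries from 21.9 to 25.0 CPM with a median of 23.9. The groups did not overlap, and the lowest library without insulin was 1.58 times the highest of Control-STAM-INS. The log2 fold changes of Csnk1e were -0.97 and -0.94 (SE 0.09 each), a level close to 51.1% and 52.1% of that without insulin.

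Of the genes for surface proteins, Efna3 had the larger fall and Mpzl1 the smaller. Efna3 (chr3:89313899-89322965, minus strand) had 15.9, 9.64, 13.6 and 11.3 CPM without insulin. Its lowest, median and highest levels were 2.30, 2.92 and 4.30 CPM in Control-STAM-INS and 2.89, 3.61 and 3.95 CPM in the ieIRKO-labelled libraries. No insulin-treated library reached the lowest library without insulin, and the means were 25.4% and 27.7% of that group's mean (log2 fold changes -1.97 and -1.85, SE 0.18 each). Mpzl1 (chr1:165592240-165634538, minus strand) had 59.1, 56.8, 60.1 and 62.3 CPM without insulin, the least spread of the 10 genes in that group, with a coefficient of variation of 3.81%. Its levels ran from 31.5 to 34.2 CPM in Control-STAM-INS (median 32.2) and from 30.4 to 42.9 CPM in the ieIRKO-labelled libraries (median 34.9). The log2 fold changes of Mpzl1 were -0.87 and -0.72 (SE 0.08 each), the smallest of the 10 genes in both comparisons, and its groups did not overlap either.

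The genes for membrane traffic and vesicle proteins stood at about 33.5% to 50.5% of their level without insulin. Ankrd13b (chr11:77470485-77489678, minus strand) had 28.5, 19.0, 23.7 and 31.9 CPM without insulin, 9.09 to 12.9 CPM in Control-STAM-INS (median 10.4) and 9.40 to 12.8 CPM in the ieIRKO-labelled libraries (median 10.9). Its log2 fold changes were -1.27 and -1.22 (SE 0.14 each), and both insulin-treated groups lay wholly below the lowest library without insulin. Clic6 (chr16:92485736-92541243, plus strand) had 40.3, 32.3, 46.0 and 62.6 CPM without insulin, 17.6 to 21.9 CPM in Control-STAM-INS (median 18.9) and 18.7 to 28.2 CPM in the ieIRKO-labelled libraries (median 22.2). The gap was narrow for the last group, since the lowest library without insulin was only 1.14 times its highest, and the log2 fold changes of Clic6 were -1.24 and -0.99 (SE 0.14 each). Syngr1 (chr15:80091334-80119501, plus strand) had 20.2, 10.3, 14.4 and 23.8 CPM without insulin, 5.53 to 6.92 CPM in Control-STAM-INS (median 6.08) and 4.70 to 7.13 CPM in the ieIRKO-labelled libraries (median 5.59). Syngr1 varied widely without insulin (coefficient of variation 35.0%) and little in Control-STAM-INS (8.05%), and its log2 fold changes were -1.49 and -1.58 (SE 0.18 each). Csnk1e and Syngr1 lie on the same chromosome, 636 kb apart.

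Both mitochondrial enzymes were lowest in the ieIRKO-labelled libraries. Hoga1 (chr19:42045610-42070953, plus strand) had 20.5, 6.74, 12.97 and 15.5 CPM without insulin, the widest spread of the 10 genes in that group (coefficient of variation 41.1%). Its lowest, median and highest levels were 2.28, 2.46 and 4.61 CPM in Control-STAM-INS, where replicate 5 stood alone at the top, and 1.05, 1.43 and 2.93 CPM in the ieIRKO-labelled libraries. Hoga1 thus stood at 19.9% and 12.5% of its level without insulin, with log2 fold changes of -2.34 (SE 0.31) and -3.01 (SE 0.32). Acss3 (chr10:106933517-107123668, minus strand) had 6.30, 3.06, 6.77 and 5.95 CPM without insulin. It ran from 1.02 to 2.59 CPM in Control-STAM-INS (median 1.47) and from 0.817 to 1.15 CPM in the ieIRKO-labelled libraries (median 1.09). Its log2 fold changes were -1.75 (SE 0.25) and -2.40 (SE 0.25), and it was the least expressed of the 10 genes per length, with 12 to 42 counts per insulin-treated library.

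**Figure D1:**
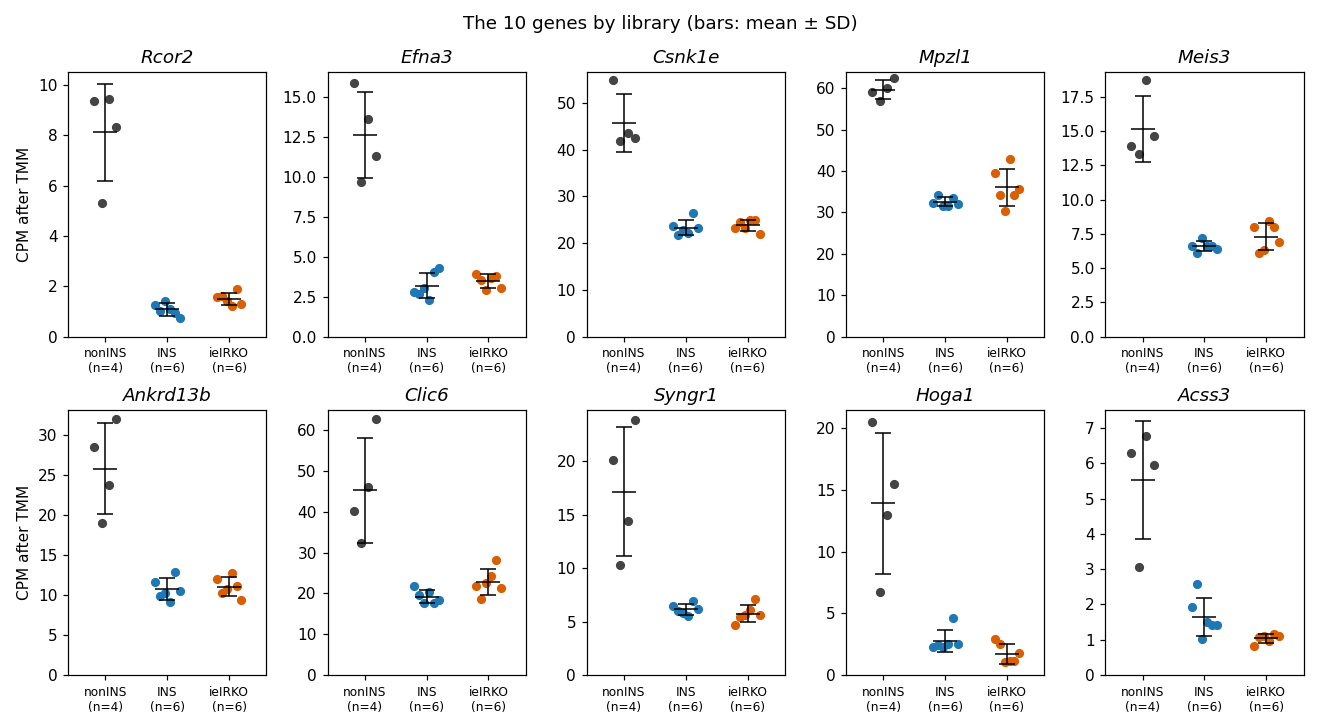
Level of each of the 10 genes in every library, in CPM after TMM scaling on axes that start at 0, for Control-STAM-nonINS (nonINS, n = 4), Control-STAM-INS (INS, n = 6) and the ieIRKO-labelled libraries (ieIRKO, n = 6), with bars for the mean ± SD. In all 10 panels every insulin-treated library lies below every library without insulin, which is the pattern the genes were chosen on.

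Across the 10 genes the median log2 fold change was -1.38 in Control-STAM-INS and -1.40 in the ieIRKO-labelled libraries, each against Control-STAM-nonINS, while the medians over all genes tested were -0.00 and 0.01. All 10 genes had an adjusted p under 0.05 with a lower level in both comparisons, where 6.76% and 7.59% of all genes did. All 10 also had groups that did not overlap, which 6.23% of genes had in Control-STAM-INS and 4.76% in the ieIRKO-labelled libraries. These counts follow from the choice of the genes, and nothing is read from them.

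The rule that chose the genes gives no cutoff, so the place of each gene among all genes was described with the smaller of its 2 statistics (the square root of edgeR's F). Of 6054 genes lower in both comparisons, 456 had both insulin-treated groups below every library without insulin. By that statistic Rcor2 ranked 1, Csnk1e 2, Efna3 3, Ankrd13b 5, Mpzl1 7, Meis3 9, Syngr1 11, Hoga1 17, Acss3 21 and Clic6 28, and 18 other genes stood above Clic6. The highest of these others were Selenom (rank 4), 1700057G04Rik (6), Tst (8), Nab2 (10) and Ctsl (12). Clic6, the last of the 10 genes, had a statistic of 6.91, and the genes just below it, Raet1e and Emp2, had 6.75 each.

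The ieIRKO-labelled libraries were then compared with Control-STAM-INS, which asks whether the labelled loss of the receptor in the epithelium goes with a different level of these genes under insulin. None of the 10 genes passed an adjusted p of 0.05 by edgeR's quasi-likelihood test, where 0.223% of all genes passed it in either direction, and none had groups that did not overlap, against 0.845% of all genes. DESeq2 and edgeR's likelihood ratio test also called 0 of the 10. Asking for a fall in both insulin-treated groups favours genes with a small difference between them, so this count is no evidence that the groups are alike. Acss3, Rcor2 and Hoga1 had the lowest p of the 10 genes by edgeR, and 7 of the 10 genes were higher and 3 lower in the ieIRKO-labelled libraries.

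Acss3 and Hoga1, the mitochondrial enzymes, differed most. Acss3 was lower with a log2 fold change of -0.65 (SE 0.24, 95% interval -1.13 to -0.17, adjusted p = 0.350, edgeR), and 2 of the 6 ieIRKO-labelled libraries lay below every Control-STAM-INS library. Hoga1 was lower too, at -0.67 (SE 0.31, interval -1.28 to -0.06, adjusted p = 0.426, edgeR), with 4 of 6 libraries below every Control-STAM-INS library. Rcor2 was on the other side at 0.46 (SE 0.21, interval 0.05 to 0.87, adjusted p = 0.412, edgeR), with 3 of 6 libraries above every Control-STAM-INS library. After adjustment over all genes these 3 differences did not pass. The narrowest interval among the other genes was that of Mpzl1, 0.00 to 0.30, around a difference of 0.15, and Csnk1e differed by 0.03 (interval -0.13 to 0.18). For Efna3 the interval was -0.22 to 0.46, for Meis3 -0.08 to 0.37, for Ankrd13b -0.20 to 0.29, for Clic6 -0.01 to 0.51 and for Syngr1 -0.42 to 0.24.

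**Figure D2:**
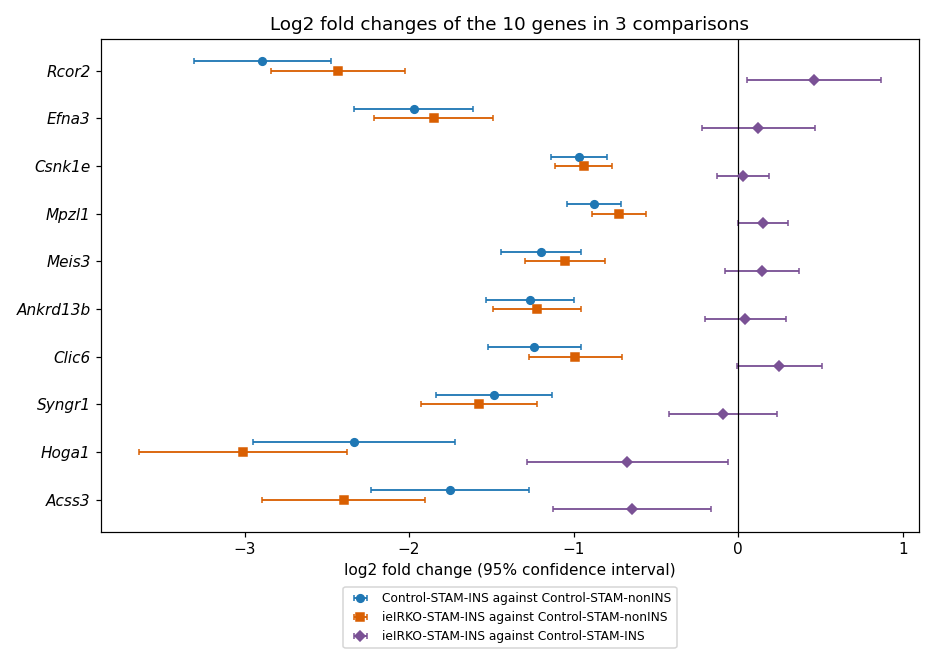
Log2 fold changes of the 10 genes with 95% confidence intervals in 3 comparisons, from edgeR. The blue circles and orange squares, both against Control-STAM-nonINS, lie between -3.01 and -0.72, and the purple diamonds, which compare the ieIRKO-labelled libraries with Control-STAM-INS, lie between -0.67 and 0.46.

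Per length, the genes were expressed at different levels. Without insulin, the order in CPM per kb of exon was Mpzl1 at 16.8, Clic6 at 11.6, Csnk1e at 6.93, Ankrd13b at 6.71, Hoga1 at 6.16, Efna3 at 5.18, Meis3 at 4.77, Syngr1 at 3.57, Rcor2 at 2.57 and Acss3 at 0.767. Mpzl1 was above 81.4% of all genes tested by this measure, and Acss3 was above 19.6%. In Control-STAM-INS, Mpzl1 stood at 9.16 and Clic6 at 4.91 CPM per kb, while Rcor2 at 0.345 and Acss3 at 0.229 were the lowest, above 10.4% and 6.31% of genes. The change in place was largest for Hoga1, which was above 61.1% of genes without insulin, 27.7% in Control-STAM-INS and 19.5% in the ieIRKO-labelled libraries.

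The 4 libraries without insulin were not alike in these genes. Control-STAM-nonINS replicate 2 had the lowest level of its group for all 10 genes, and the median deviation of the 10 genes from the group mean was -0.43 on the log2 scale there, against 0.24, 0.04 and 0.12 in replicates 1, 3 and 4. That library also had the fewest counted reads of its group, 13609663, and whether this has a part in the low levels was not tested. Every one of the 10 genes in it was still above every insulin-treated library. Without replicate 2 the median log2 fold changes became -1.52 in Control-STAM-INS and -1.54 in the ieIRKO-labelled libraries. In the insulin-treated groups no library was lowest for more than 4 of the 10 genes.

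**Figure D3:**
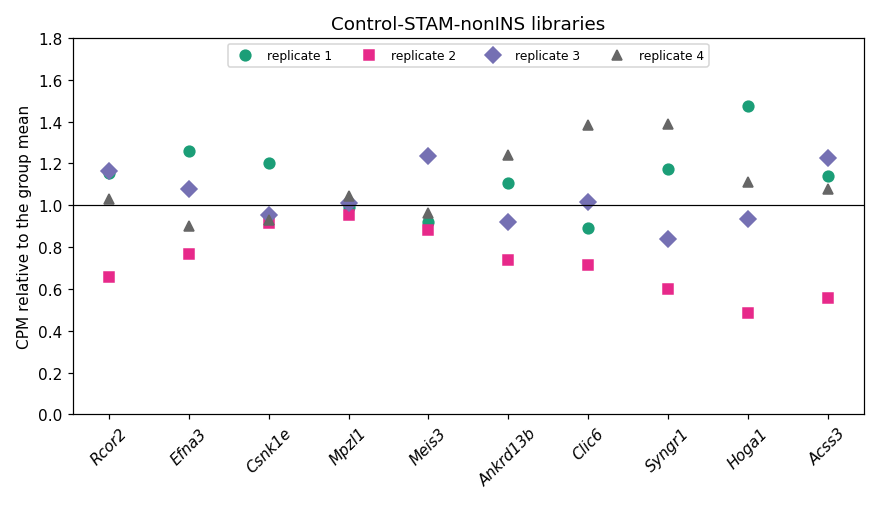
Level of the 10 genes in each of the 4 Control-STAM-nonINS libraries relative to the mean of that group, which is 1 on a linear axis that starts at 0. Replicate 2 (squares) is the lowest library for all 10 genes, and it is nearest to the mean for Mpzl1.

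Correlations among the 10 genes were described as well. Over all 16 libraries, Pearson's r of log2 CPM between pairs had a median of 0.913 over 45 pairs, and the difference between groups on which the genes were chosen enters it. After the group means were taken out, the median r was 0.287, and 39 of 45 pairs were positive. Among the 12 insulin-treated libraries alone it was 0.170, with 29 of 45 pairs positive and a range from -0.63 to 0.77. These correlations share libraries and their scaling and are given as a description.

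The genes whose pattern over the 16 libraries was most like the mean of the 10 genes were Pmm1 (Pearson's r = 0.962), Adam15, Selenom, 1700057G04Rik, Cd81, Fgfr3, Rtn4, Sfr1, Cyb5r3 and Mettl26 (r = 0.935), in that order. The difference between groups on which the 10 genes were chosen enters these values too. With the group means taken out, r was 0.547 for Pmm1 and ran from 0.253 (Sfr1) to 0.777 (Fgfr3). Fgfr3, a receptor for fibroblast growth factors, had 42.9 ± 15 CPM (SD, n = 4) without insulin, with insulin 14.9 ± 2.1 CPM in Control-STAM-INS (SD, n = 6), and 13.6 ± 3.38 CPM (SD, n = 6) in the ieIRKO-labelled libraries. The transcript 1700057G04Rik had 6.36 CPM without insulin and means of 0.0972 and 0.155 CPM with it. By Spearman's rho none of these 10 genes stayed among the 10 most alike, so the list depends on the measure.

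Lists of 104 paralogs, partners and pathway genes of the 10 genes were read next, of which 93 were tested. In Control-STAM-INS against Control-STAM-nonINS, 11 of the 93 passed an adjusted p of 0.05, 1 higher and 10 lower, or 11.8% where 10.5% of all genes passed. In the ieIRKO-labelled libraries, 17 passed, 2 higher and 15 lower, or 18.3% where 13.3% of all genes passed. Between the insulin-treated groups 1 of 93 passed, or 1.08% where 0.223% of all genes passed. The shares against Control-STAM-nonINS are thus close to or somewhat above those of all genes, and the median log2 fold changes of the 93 were -0.08 and -0.17.

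Among the partners of Rcor2 in the CoREST complex, 4 of 14 tested genes fell in Control-STAM-INS and none rose, where 6.76% of all genes fell. Kdm1a, the histone demethylase of the complex, had a log2 fold change of -0.43 (adjusted p = 0.00172, edgeR), Phf21a, which binds unmethylated histone tails, -0.43, the zinc finger gene Zmym2 -0.48 and Hmg20b, an HMG-box subunit, -0.38. For Rcor2 itself the value was -2.89. The paralogs Rcor1 and Rcor3 did not pass, with log2 fold changes of -0.06 (adjusted p = 0.734) and 0.00 (adjusted p = 0.996, edgeR). These 4 genes also fell in the ieIRKO-labelled libraries, Hmg20b (-0.51), Kdm1a (-0.35), Phf21a (-0.39) and Zmym2 (-0.43), where 7.59% of all genes fell. Gfi1, a repressor that recruits the complex, rose there (1.17, adjusted p = 0.00737, edgeR) and had 0.80 in Control-STAM-INS (adjusted p = 0.0601, edgeR), where it passed by DESeq2 (0.0259).

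Among 17 tested ephrins and Eph receptors, 3 fell in Control-STAM-INS and none rose, beside 6.76% of all genes. They were Efna4 (log2 fold change -0.89), Ephb3 (-0.71) and Ephb2 (-0.47), the latter pair being receptors found at the base of intestinal crypts. In the ieIRKO-labelled libraries, Efna4 (-0.85), Ephb3 (-0.66), Ephb2 (-0.38) and Epha2 (-1.32) fell, beside 7.59% of all genes. Epha2 had -1.17 in Control-STAM-INS (adjusted p = 0.0526, edgeR), where it passed by DESeq2 (0.0275), and no gene of the list differed between the insulin-treated groups. Efna1, another ligand of the family, had a log2 fold change of 0.40 (adjusted p = 0.216, edgeR).

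None of the 12 tested genes of casein kinase 1 and the period and cryptochrome clock genes passed in Control-STAM-INS. Csnk1d, the closest paralog of Csnk1e, had a log2 fold change of -0.06 (adjusted p = 0.679, edgeR), and Csnk1a1 had -0.03. In the ieIRKO-labelled libraries, Per1, a clock gene, fell (-1.27, adjusted p = 0.0315, edgeR), 1 gene of 12 beside 7.59% of all genes. This call was lost when only the 2 groups compared were fitted (adjusted p = 0.0907, edgeR). In Control-STAM-INS, Per1 had -0.94 (adjusted p = 0.109, edgeR), and there it passed when only the 2 groups compared were fitted (0.03999). Of the 5 tested genes around Mpzl1, none passed, with Mpzl2 at -0.35 and Mpzl3 at -0.60 in Control-STAM-INS. Of 13 TALE homeobox genes beside Meis3, Pbx2, a partner of Meis proteins, fell in both comparisons (-0.43 and -0.35), beside 6.76% and 7.59% of all genes, the latter not passing when only the 2 groups compared were fitted (adjusted p = 0.0562, edgeR), and Meis1 (-0.11) and Meis2 (0.08) did not pass in Control-STAM-INS.

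Relatives of the membrane traffic genes were described next. Of 3 tested relatives of Ankrd13b none passed, with Ankrd13a at 0.25 and Ankrd13c at 0.19 in Control-STAM-INS. Of 3 tested chloride intracellular channels beside Clic6 none passed either, with Clic1 at -0.06, Clic4 at -0.31 and Clic5 at 0.35. Syngr2, a paralog of Syngr1, had 0.05 in Control-STAM-INS, and Sypl2 fell in the ieIRKO-labelled libraries (-0.75, adjusted p = 0.0389, edgeR) as the 1 gene of 5 tested, beside 7.59% of all genes. It had -0.55 in Control-STAM-INS (adjusted p = 0.134, edgeR), where it passed when only the 2 groups compared were fitted (0.0342). Fitted that way, the call of Sypl2 in the ieIRKO-labelled libraries was lost (adjusted p = 0.114, edgeR). That family members did not pass is no test that they differ from Ankrd13b, Clic6 or Syngr1.

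Of 12 tested genes of hydroxyproline and glyoxylate metabolism, Grhpr, which reduces the glyoxylate that Hoga1 makes, fell in Control-STAM-INS (-0.48, adjusted p = 0.0320, edgeR) and Pycr1, an enzyme of proline synthesis, rose (0.75, adjusted p = 0.0492, edgeR), beside 6.76% of all genes that fell and 3.73% that rose. Grhpr (-0.51), Prodh and Got1 fell and Pycr1 (0.88) rose in the ieIRKO-labelled libraries, where 7.59% of all genes fell and 5.74% rose. Prodh, which starts proline breakdown, was the 1 gene of these 93 that differed between the insulin-treated groups, lower in the ieIRKO-labelled libraries (-0.53, adjusted p = 0.00818, edgeR). Against Control-STAM-nonINS, Prodh had 0.04 in Control-STAM-INS and -0.49 in the ieIRKO-labelled libraries. Got1, an aspartate transaminase, fell in the latter (-0.72), and its difference from Control-STAM-INS did not pass (adjusted p = 0.336, edgeR). Of 9 tested short-chain acyl-CoA synthetases and propionate genes, Acsm3 fell in both comparisons (-1.16 and -1.05), 1 gene of 9 beside 6.76% and 7.59% of all genes, and the paralogs Acss1 (-0.02) and Acss2 (0.17) did not pass in Control-STAM-INS.

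Several of these calls lay near the threshold and were lost when 1 library was left out, with fold changes in the same direction. The call of Ephb2 in Control-STAM-INS was lost without Control-STAM-nonINS replicate 1 (-0.39, adjusted p = 0.0618, edgeR), and in the ieIRKO-labelled libraries without that library (0.128), Control-STAM-nonINS replicate 4 (0.08875) or ieIRKO-STAM-INS replicate 2 (0.05735) or 3 (0.0631), at -0.36 to -0.30. The call of Hmg20b in Control-STAM-INS was lost without Control-STAM-nonINS replicate 1 (-0.39, adjusted p = 0.0508, edgeR) or 3 (-0.35, adjusted p = 0.0617, edgeR). Those of Grhpr and Pycr1 were lost there in 7 and 11 of 16 fits that left out 1 library, with adjusted p up to 0.113 and 0.148, while the log2 fold changes in those fits were -0.50 to -0.40 for Grhpr and 0.61 to 0.78 for Pycr1. In the ieIRKO-labelled libraries, those of Grhpr and Pycr1 were lost in 2 such fits each, that of Epha2 in 4, those of Per1 and Sypl2 in 5 each and that of Zmym2 in 1, with Control-STAM-nonINS replicate 1 or 3 among the libraries each time. No fit that left out 1 library changed a call of Kdm1a, Phf21a, Efna4, Ephb3, Pbx2, Acsm3 or Prodh. Calls of the 10 genes did not change either, but these genes were chosen on the same libraries, so nothing is read from that.

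**Figure D4:**
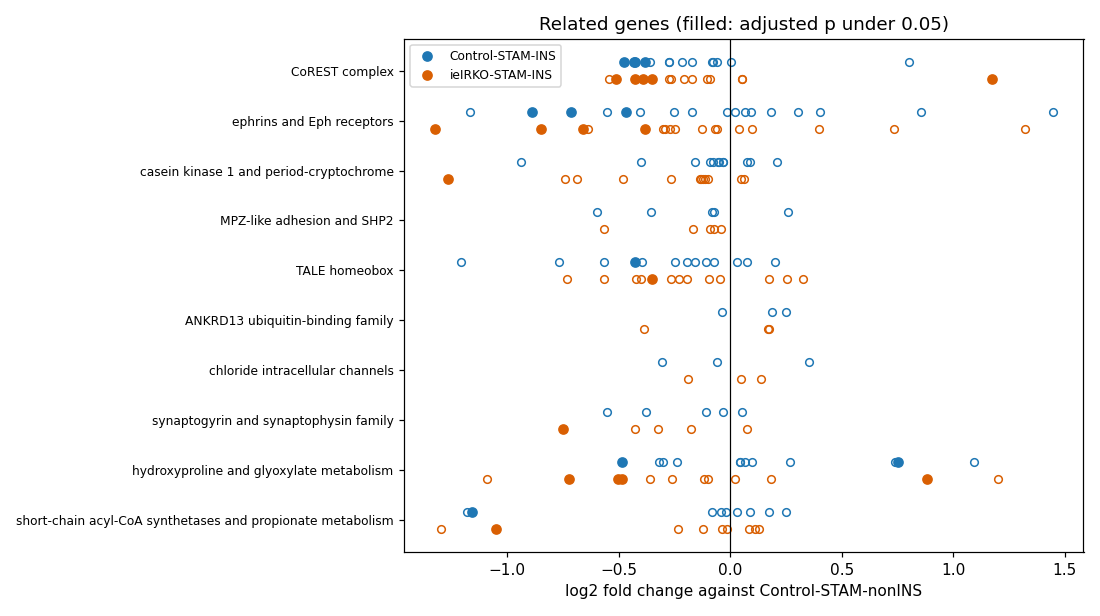
Log2 fold changes against Control-STAM-nonINS of the 93 tested related genes, by list, for Control-STAM-INS (blue) and the ieIRKO-labelled libraries (orange), with filled points for an adjusted p under 0.05. Filled points number 11 and 17, and most lie to the left of 0.

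Around the 10 genes, 64 other genes are annotated within 50 kb, of which 29 were tested. Of these, 2 fell in Control-STAM-INS, near the 6.76% of all genes that did, and both lie beside Efna3. Both also fell in the ieIRKO-labelled libraries, where 7.59% of all genes fell. Naa40, an acetyltransferase gene 26.1 kb from Rcor2, rose there (0.38, adjusted p = 0.0121, edgeR), beside 5.74% of all genes. Efna4, another ephrin, lies 10.4 kb from Efna3 on the same strand and had 15.6, 11.8, 11.8 and 12.6 CPM without insulin, 5.46 to 8.09 CPM in Control-STAM-INS and 5.46 to 9.70 CPM in the ieIRKO-labelled libraries. Adam15, a membrane metalloprotease 15.6 kb away on the same strand, had 65.8, 50.8, 61.7 and 57.0 CPM without insulin, 31.3 to 39.3 CPM in Control-STAM-INS and 33.4 to 39.7 CPM in the ieIRKO-labelled libraries. Neither gene's groups overlapped between insulin-treated and untreated mice. Of all genes, 6.23% lay wholly below the untreated mice in Control-STAM-INS and 4.76% in the ieIRKO-labelled libraries. On the other side of Efna3, Efna1 (0.40), Slc50a1 (0.08) and Dpm3 (-0.04) did not pass in Control-STAM-INS, nor did Dcst1 (-0.46) beyond Adam15. The antisense transcript 4731419I09Rik, 14.9 kb from Efna3, had 0.642 CPM without insulin. It did not pass in Control-STAM-INS (-0.34) or in the ieIRKO-labelled libraries (-1.36, adjusted p = 0.0831, edgeR). Mark2, whose annotated end lies 171 bases from the end of Rcor2 on the opposite strand, had a log2 fold change of 0.17 in Control-STAM-INS (adjusted p = 0.373, edgeR).

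**Figure D5:**
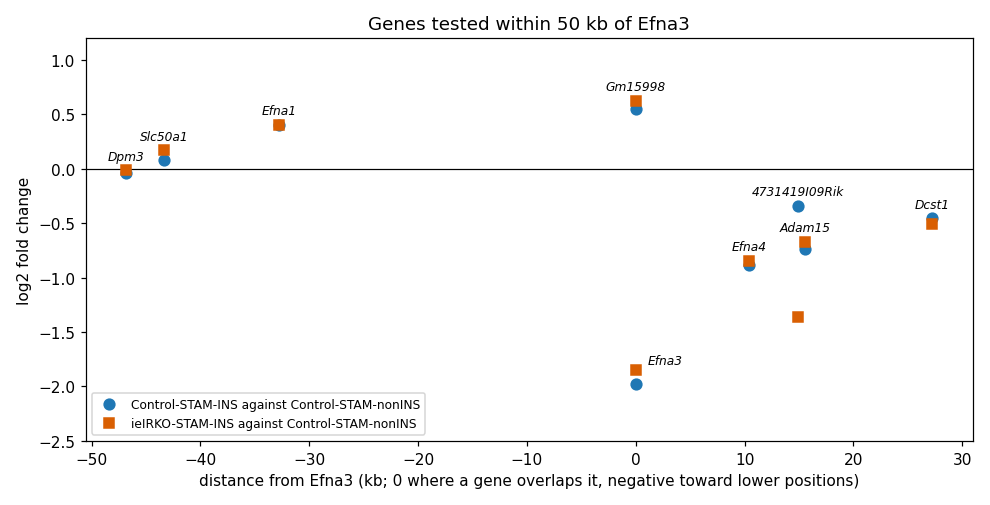
Log2 fold changes against Control-STAM-nonINS of genes tested within 50 kb of Efna3, plotted by the gap to Efna3 in kb, for Control-STAM-INS (circles) and the ieIRKO-labelled libraries (squares). Efna3, Efna4 and Adam15 are below 0 in both, as are Dcst1, 4731419I09Rik and Dpm3, which did not pass. Efna1 on the other side is at 0.40 in both.

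Some of the genes overlap others. Rpl3, a ribosomal protein gene, lies on the opposite strand of the Syngr1 locus and had 776 CPM without insulin against 17.2 CPM of Syngr1, and Gm15998 lies antisense to Efna3 with 3.34 CPM. The log2 fold changes of Rpl3 (-0.30) and Gm15998 (0.54) in Control-STAM-INS did not pass. The library kit kept strand, but whether the counting used it is not given in the sources used here, so reads of these pairs may not be fully separated.

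Markers of other cell types differed in the same comparisons. Of 7 enteroendocrine markers, 5 fell in Control-STAM-INS, where 6.76% of all genes fell (Chga -0.92, Chgb -1.84, Neurod1 -1.15, Gcg -0.95 and Tph1 -2.10), and 3 in the ieIRKO-labelled libraries, where 7.59% of all genes fell (Chga -0.88, Chgb -1.43 and Tph1 -1.77). Their summed level was 153 to 304 CPM without insulin, 77.5 to 160 CPM in Control-STAM-INS and 81.4 to 164 CPM in the ieIRKO-labelled libraries, so the groups overlapped. Cck and Pyy, the other 2, did not pass in either comparison. Control-STAM-nonINS replicate 2, lowest for the 10 genes, had 193 CPM and was not the lowest there. Of 10 enteric neuron markers, Vip fell in both comparisons (-1.05 and -0.92) and Ret rose in Control-STAM-INS (0.58), beside 6.76% and 7.59% of all genes that fell and 3.73% that rose. The sum was 145 to 202 CPM without insulin, 123 to 145 CPM in Control-STAM-INS and 113 to 162 CPM in the ieIRKO-labelled libraries. Of 6 smooth muscle markers none passed, with sums of 2762 to 3238, 2253 to 3506 and 2464 to 3506 CPM. Of 4 T cell markers, Cd3e, Cd3g and Cd8a rose in both comparisons, where 3.73% and 5.74% of all genes rose, and Cd4 did not pass (-0.20 and 0.19). Their sums were 12.3 to 22.6, 20.6 to 35.8 and 21.7 to 51.4 CPM.

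Of 5 Paneth cell markers without defensins, Lyz1, a lysozyme, fell in the ieIRKO-labelled libraries (-2.22) and so did Ang4 (-1.22), while Itln1 rose in Control-STAM-INS (1.39). Of all genes, 7.59% fell in the former and 3.73% rose in the latter. Their sum was 2226 to 3836 CPM without insulin, 2836 to 4696 CPM in Control-STAM-INS and 723 to 1341 CPM in the ieIRKO-labelled libraries, which lay wholly below the others. Against Control-STAM-nonINS the 5 markers had a median log2 fold change of -0.12 there, and 3 were lower, so the sum does not stand for the whole list. Of 5 B and plasma cell markers, Cd79a (1.86), Jchain (0.87) and Mzb1 (1.29) rose in the ieIRKO-labelled libraries, where 5.74% of all genes rose, and none passed in Control-STAM-INS. Between the insulin-treated groups none passed by edgeR, though all 5 were higher under the ieIRKO label (median 2.01 on the log2 scale). The sums of that list were 715 to 1768 CPM without insulin, 956 to 1540 CPM in Control-STAM-INS and 1571 to 3111 CPM in the ieIRKO-labelled libraries, so the insulin-treated groups did not overlap. The tuft cell gene Trpm5 rose in both comparisons (0.59 and 0.75), 1 of 4 tested, beside 3.73% and 5.74% of all genes, with sums of 26.5 to 28.8, 29.1 to 43.8 and 29.2 to 43.4 CPM. Cdh5, 1 of 3 endothelial markers, fell in Control-STAM-INS (-0.70), beside 6.76% of all genes, and the sums of 67.8 to 183, 64.4 to 94.5 and 71.6 to 103 CPM overlapped. The ileal bile acid binding gene Fabp6, 1 of 8 enterocyte markers, fell in the ieIRKO-labelled libraries (-0.59), and so did the fibroblast gene Dcn (-0.48), 1 of 4, beside 7.59% of all genes. Of the pancreatic acinar list 1 gene was tested, Cela1, which fell in both comparisons (-0.89 and -0.84), beside 6.76% and 7.59% of all genes. Cpa1, Cela2a, Pnlip and Amy2a5 were at 0 in every library. No goblet, crypt stem, glial, macrophage or fat and mesothelium marker passed in any comparison. The part of these cell types in the levels of the 10 genes was not tested.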

How the data were processed

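Total RNA of the ileal wall of 16 mice was sequenced, and per the labels and methods the authors used CLC Genomics Workbench with GRCm38 and deposited 1 table of raw read counts per gene for each mouse. Counting parameters are not given in the sources used here. Groups came from the labels.

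Tests used edgeR 4.0.16 under R 4.3.3. The filter on low counts was filterByExpr (minimum count 10, minimum total 15), libraries were scaled by TMM, and a robust quasi-likelihood model was fitted to the 3 groups together, with Benjamini-Hochberg adjustment over 15267 genes. Levels are CPM after TMM, and log2 CPM adds a prior count of 2. Confidence intervals are 95% and use the normal quantile. Each library is 1 mouse, so the spread is between mice, and 13288018 to 22215382 counted reads limit the precision for genes with few counts.

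The 10 genes and all lists were chosen with earlier results of these data known. Genes named are these 10, Insr, related genes past the threshold (at most 3 per list and comparison) or closest paralogs, the 10 genes most alike in pattern, tested neighbours within 50 kb, and the 5 highest-ranking other genes. Members of the marker lists are named beside their list. Raet1e and Emp2, and Hmg20b, Phf21a, Zmym2, Epha2 and Grhpr in comparisons where 3 others of their list had smaller p, were added after values were seen. Positions and exon lengths are from GENCODE M21. Alternatives were DESeq2 1.42.0, the likelihood ratio test, 2 other scalings, no filter, only the groups compared, a replicate block and leaving out each library.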

Additional observations from a re-analysis of the deposited data

Results flagged for a closer look

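Csnk1e was flagged because Control-STAM-nonINS replicate 1 stood apart from its group, with a gap to the next library that was 0.873 of the group's range. Its level there was 54.9 CPM, and the other 3 libraries lay between 41.8 and 43.5 CPM.

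Hoga1 was flagged because Control-STAM-INS replicate 5 stood apart at 4.61 CPM, with a gap to the next library that was 0.903 of the group's range. This library was still below every Control-STAM-nonINS library, of which the lowest had 6.74 CPM. In all, 33 groups of values were looked at this way for the 10 genes and Insr, 2 were flagged, and chance flags about 1.65 of 33.

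Prodh was flagged because its difference from Control-STAM-nonINS was not the same in both insulin-treated groups, by a log2 fold change of -0.527 between them (adjusted p = 0.00818, edgeR's quasi-likelihood test).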

How the results depend on the processing

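The 10 genes kept their direction and an adjusted p under 0.05 against Control-STAM-nonINS in all 7 alternative fits and in all 16 fits that left out 1 library, where the median log2 fold change ran from -1.52 to -1.25 in Control-STAM-INS and from -1.54 to -1.24 in the ieIRKO-labelled libraries. The genes were chosen on their fall in these same libraries, so this is a description and nothing is read from it. Between the insulin-treated groups 0 of the 10 genes passed in any of these fits, which that choice also favours.

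The count of related genes passing in Control-STAM-INS was 17 by DESeq2 and 21 when only the 2 groups compared were fitted, and 7 to 16 when 1 library was left out (7 without Control-STAM-nonINS replicate 1). In the ieIRKO-labelled libraries it was 11 when only the 2 groups compared were fitted. Over all genes, the calls in that comparison numbered 1038 when only 2 groups were fitted and 1093 without Control-STAM-nonINS replicate 1, those in Control-STAM-INS 824 without that library, and those between the insulin-treated groups 127 by DESeq2 and 90 by the likelihood ratio test. Of the 10 genes most alike, 0 stayed with Spearman's rho and 6 to 8 when 1 library was left out. The cause of these changes was not tested.

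Among related genes in the ieIRKO-labelled libraries, Ephb2, Pbx2, Pycr1, Epha2, Per1 and Sypl2 did not pass when only the 2 groups compared were fitted (adjusted p from 0.0562 to 0.114, edgeR), Ephb2 not with upper-quartile scaling (0.0590), and Epha2 and Per1 not without the filter (0.05002 and 0.0574). In Control-STAM-INS, Grhpr did not pass with upper-quartile scaling (0.0526) and Pycr1 not without the filter (0.0641). All kept their direction. In the same comparison Per1 and Sypl2 passed when only the 2 groups compared were fitted, and also without ieIRKO-STAM-INS replicate 4 (Per1, 0.04935) or 3 (Sypl2, 0.0443).

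The sign of small differences that did not pass turned when 1 library was left out. The log2 fold changes then ran from -0.0028 to 0.099 for Ankrd13b and from -0.0026 to 0.16 for Insr between the insulin-treated groups, and from -0.0018 to 0.10 for Prodh in Control-STAM-INS.

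With the replicate number as a block, 10 of the 10 genes still passed in both comparisons (medians -1.38 and -1.41), which their choice on these libraries favours. Grhpr and Pycr1 were lost in Control-STAM-INS (adjusted p = 0.0696 and 0.0871, edgeR) and in the ieIRKO-labelled libraries (0.0521 and 0.0562), where Per1 (0.0582) and Sypl2 (0.0535) were lost too, and Gfi1 passed in Control-STAM-INS (0.0281). Deviations of same-numbered libraries had r from -0.09 to 0.18 over 14 pairs, 4 of them above 0.1, and the numbers were not taken as pairs. Of the 10 genes, Hoga1 had the largest standard errors against Control-STAM-nonINS (0.31 and 0.32).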
